A study of Oncorhynchus kisutch with 221 samples.

Results

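Hatchery coho salmon (Oncorhynchus kisutch) caught at sea in the summer of 2009 were set against hatchery smolts taken from rivers in the same year, in white muscle. The comparison held 51 of the 221 fish of the series, chosen by the labels for year, origin, season and area. There were 23 summer fish, 17 from the ocean area labelled NM_SoG and 6 from south_SoG. The 28 smolts came from 3 rivers, 9 from capilano, 10 from chehalis and 9 from puntledge. All were of hatchery origin and from 2009. For 1 comparison, wild fish of 2009 with the same season labels were added, 26 summer fish (15 from NM_SoG and 11 from south_SoG) and 12 smolts (6 from capilano and 6 from the river labelled salmon). For 4 probes, the means of 29 hatchery fish of fall 2009 from the same ocean areas are given as well. The labels gave a sex for 21 of the summer fish (7 females and 14 males) and for 10 of the smolts (4 females and 6 males).

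A smolt is a young salmon that is changing its body for life in salt water and is about to leave its river. Coho salmon spend their first months at sea in coastal waters, where they feed and grow fast. White muscle is the fast-contracting muscle that fills most of the trunk of a fish, powers bursts of swimming, and lays down much of the protein gained in growth.

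The RNA of each fish was hybridised on an array of its own beside a reference, a pool of muscle RNA from all fish. A value is read here as the log2 ratio of the fish to the pool, which is the likely but unstated scale of the deposited table, and a step is the summer mean minus the smolt mean. The probes are not tied to genes in the tables used here, so they carry their array identifiers and no function can be given. A probe was tested where at least 50% of the fish of each group had a value. The number of arrays limits the precision. Of 43636 probes, 21956 were tested and 10371 had a value in all 51 fish. The mean share of empty cells was 45.4% ± 5.35 (SD, n = 23) in summer fish and 46.9% ± 7.91 (SD, n = 28) in smolts. No probe measured in at least 75% of the fish of one stage was measured in 25% or fewer of the other. Correlations between pairs of arrays ran from -0.39 to 0.754, and 5 of 1275 pairs lay below -0.3. The dyes were the same way round for all fish, per the labels, and the sign of the values was left as deposited.

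The libraries did not fall into 1 set per stage. The leading axis of variation of the 51 fish held 17.7% of the variance of the 10371 complete probes. Along it the hatchery smolts of every river lay in unlike sets that mostly followed the number of the slide. Slides carry up to 4 arrays, and over the whole series their numbers have a single break, where 5 numbers are missing. Slides after the break are called higher slides and those before it lower slides. All 13 smolts on higher slides scored below 0, from -31.3 to -7.47 with a median of -16.9. Of the 15 smolts on lower slides 14 scored above 0, with a median of 25.4 and a highest value of 56.6. The exception was a capilano smolt at -16. Summer fish lay below 0 in 20 of 23 cases, with a median of -9.83, and the 3 above 0 were on higher slides, at 0.464, 20.6 and 42.3.

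The split of the smolts was present within each river. In capilano the median score was -14.3 for 5 smolts on higher slides and 24.1 for 4 on lower slides. In chehalis the 2 smolts on higher slides scored -19.1 and -19, and the 8 on lower slides scored from 16.3 to 37.2. In puntledge the 6 on higher slides scored from -31.3 to -14.7, and the 3 on lower slides from 47.7 to 56.6. The sets did not overlap in chehalis or puntledge, and in capilano they overlapped only through the exception. Over the 3 rivers together, smolts on higher slides also had more empty cells, 51.1% ± 7.34 (SD, n = 13), than those on lower slides, 43.2% ± 6.6 (SD, n = 15). Capilano smolts did not share this gap, with 37.2% to 49.2% on higher and 36.2% to 50.8% on lower slides. Fork length averaged 12.2 cm ± 1.36 (SD, n = 13) on higher slides and 11.8 cm ± 0.546 (SD, n = 15) on lower slides. The 12 wild smolts, all on lower slides, also fell into unlike sets. Of these, 5 scored from -19.9 to -14.4 and 7 from 11.4 to 35.4. Wild smolts that shared a slide lay on the same side of 0. The capilano exception shared its slide with the wild smolt at -17.9. Lower slides thus did not hold a single set of smolts, and the break does not mark every change between slides. Why the smolts differed between slides was not tested. The main results are given for each slide range as well as for all fish.

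**Figure D1:**
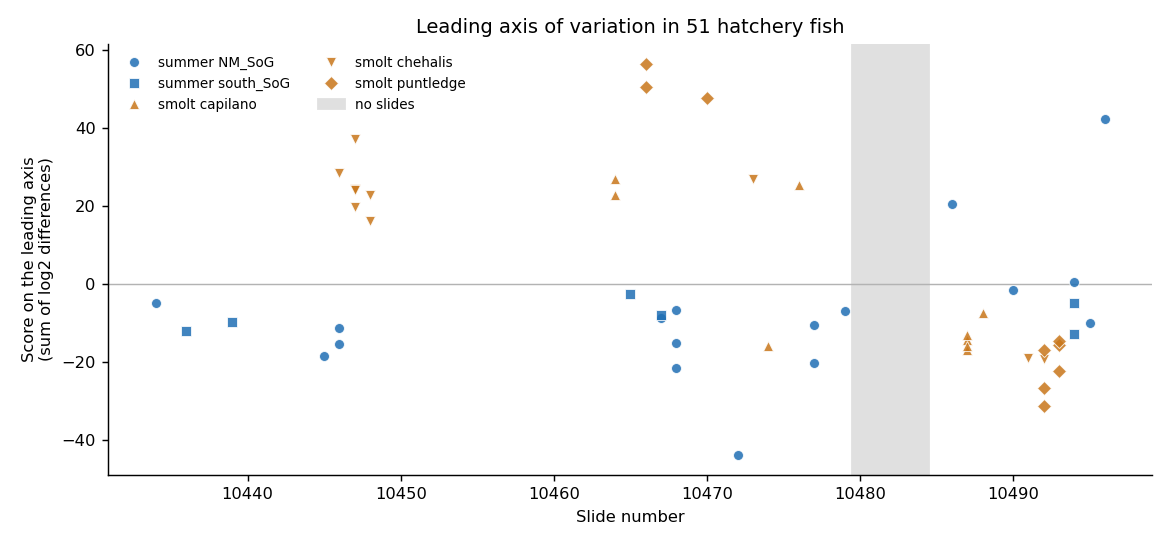
Score of each of the 51 hatchery fish on the leading axis of variation (vertical axis, sum of weighted log2 differences from the mean) against the number of its slide (horizontal axis); blue symbols are summer fish, orange symbols are smolts, and the grey band marks 5 slide numbers that no fish carries. Smolts lie mostly above 0 left of the band and all below 0 right of it. All 16 summer fish left of the band lie below 0, and right of it 4 lie below 0 and 3 above.

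The summer fish were longer and heavier than the smolts, and were rounder for their length. Fork length ranged from 13.2 to 24.1 cm with a median of 17.9 cm in summer fish, and from 10.3 to 15.7 cm with a median of 11.9 cm in smolts. The mean difference was 6.25 cm (SE 0.552, adjusted p = 3e-05 in a two-sided permutation test with 100000 resamples, adjusted over 3 measures). The unadjusted p of 2e-05 was the smallest that the resamples can give. The ranges overlapped little: 20 of 23 summer fish were longer than every smolt, and 26 of 28 smolts were shorter than every summer fish.

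Total mass was 78.1 g ± 32.7 (SD, n = 20) in the summer fish that had been weighed and 19.4 g ± 6.16 (SD, n = 28) in smolts, a difference of 58.7 g (SE 7.39, adjusted p = 3e-05, same permutation test). The condition factor, which is 100 times the mass in g over the cube of the length in cm and measures how full-bodied a fish is, was 1.19 ± 0.0882 (SD, n = 20) in summer fish and 1.10 ± 0.0751 (SD, n = 28) in smolts. It was higher by 0.0855 in summer fish (SE 0.0243, adjusted p = 0.0007, same permutation test), and the groups overlapped over most of their range.

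Size also varied inside each stage. By place, fork length averaged 18.6 cm ± 2.68 (SD, n = 17) in NM_SoG and 17.1 cm ± 1.44 (SD, n = 6) in south_SoG summer fish. Among smolts it was 12.9 cm ± 1.14 (SD, n = 9) in puntledge, 11.7 cm ± 0.495 (SD, n = 10) in chehalis and 11.4 cm ± 0.625 (SD, n = 9) in capilano. On higher slides fork length averaged 16.9 cm ± 1.91 (SD, n = 7) in summer fish and 12.2 cm ± 1.36 (SD, n = 13) in smolts, and on lower slides 18.8 cm ± 2.52 (SD, n = 16) in summer fish and 11.8 cm ± 0.546 (SD, n = 15) in smolts. Summer fish were thus longer on average in both ranges. The condition factor averaged 1.15 ± 0.129 (SD, n = 7) in summer fish and 1.12 ± 0.0711 (SD, n = 13) in smolts on higher slides, and 1.21 ± 0.0546 (SD, n = 13) in summer fish and 1.09 ± 0.0777 (SD, n = 15) in smolts on lower slides. Without the puntledge smolts the length difference was 6.68 cm, and among males alone, 14 summer fish and 6 smolts, it was 6.74 cm (adjusted p = 0.000155, exact permutation test). The 6 male smolts were all from chehalis, so this comparison changes river as well as sex.

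**Figure D2:**
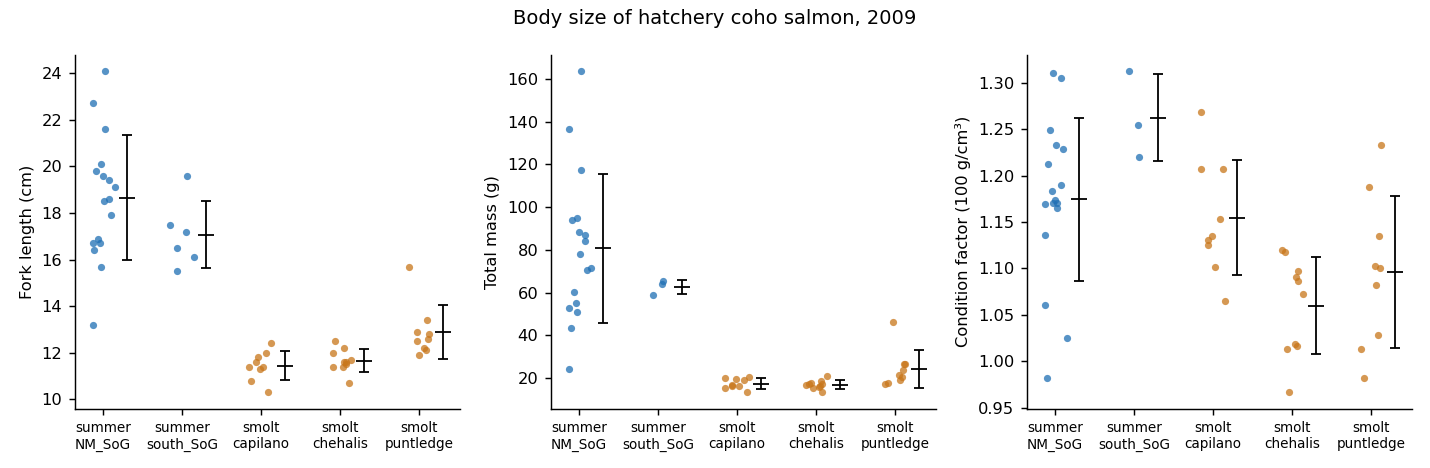
Fork length in cm, total mass in g and condition factor of each fish, by ocean area for summer fish (blue) and by river for smolts (orange); points are fish, and bars beside them are the mean and SD. Fork length separates the stages except between 13.2 and 15.7 cm, and the condition factors overlap.

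The summer muscle differed from smolt muscle at 122 of 21956 probes, 0.556% of those tested, at an adjusted p under 0.05 (limma's moderated test with Benjamini-Hochberg adjustment). As many were higher in summer fish as were lower, 61 each. This fit treats the 51 fish as independent, although fish share slides and places. With slide as a random block 23 probes passed, and with place as a random block 17. The median size of the step was 0.50 among the 122 probes, against 0.12 over all tested probes, and 5 of them changed by at least 1 (4 up and 1 down). At an unadjusted p under 0.05 there were 3530 probes. The spread between fish was close in both stages, with a median SD over probes of 0.42 in summer fish and 0.39 in smolts.

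C046R149 was the probe that set the stages apart most firmly. It ranged from -1.46 to 0.28 with a median of -0.44 in summer fish, and from -0.41 to 1.495 with a median of 0.35 in smolts. Every summer fish lay below the smolt median and every smolt above the summer median, and 12 of 23 summer fish lay below every smolt. The mean was -0.48 ± 0.38 (SD, n = 23) in summer fish and 0.37 ± 0.47 (SD, n = 28) in smolts, a step of -0.86 (SE 0.12, adjusted p = 5.75e-05).

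This probe was low in both ocean areas and high in 2 of the 3 rivers. Its mean was -0.48 ± 0.41 (SD, n = 17) in NM_SoG and -0.48 ± 0.28 (SD, n = 6) in south_SoG summer fish. Among smolts it was 0.63 ± 0.50 (SD, n = 9) in capilano, 0.47 ± 0.40 (SD, n = 10) in chehalis and 0.02 ± 0.29 (SD, n = 9) in puntledge. In hatchery fish of fall 2009 from the same areas it averaged 0.03 ± 0.38 (SD, n = 29), which lies between the summer fish and the smolts.

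C200R149 had the largest step among the lower probes with the same sign in the 3 regions described further on. It ranged from -1.80 to 0.26 with a median of -1.19 in summer fish, and from -1.46 to 1.73 with a median of -0.06 in smolts. The groups overlapped, but 21 of 23 summer fish lay below the smolt median and 27 of 28 smolts above the summer median. The step was -1.07 (SE 0.18, adjusted p = 0.00146), from means of -1.06 ± 0.55 (SD, n = 23) in summer fish and 0.01 ± 0.73 (SD, n = 28) in smolts.

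C165R160 was the higher probe with the smallest p. It ranged from -1.05 to 1.23 with a median of 0.52 in summer fish, and from -1.77 to 0.77 with a median of -0.47 in smolts. All summer fish but 1, an NM_SoG fish at -1.05, lay above the smolt median, and 25 of 28 smolts lay below the summer median. The step was 0.92 (SE 0.15, adjusted p = 0.000791), from means of 0.49 ± 0.42 (SD, n = 23) in summer fish and -0.43 ± 0.62 (SD, n = 28) in smolts.

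C178R143 had the largest step among the higher probes of that kind. It ranged from -1.48 to 1.78 with a median of 0.30 in summer fish, and from -2.17 to 2.002 with a median of -1.18 in the 27 smolts that had a value. Smolts reached as high as any summer fish, but 12 of the 27 lay below every summer fish. The step was 1.20 (SE 0.29, adjusted p = 0.0375). Its adjusted p in limma was 0.0967 with slide and 0.198 with place as a random block, so it passed with neither. The smolt levels differed by river, with means of -0.08 ± 1.32 (SD, n = 9) in capilano, -1.44 ± 0.71 (SD, n = 9) in chehalis and -1.21 ± 0.96 (SD, n = 9) in puntledge. They also differed by slide range inside rivers. Smolts on higher slides ran from -0.59 to 2.002 in capilano, -0.49 to -0.07 in chehalis and -1.98 to 0.88 in puntledge. Those on lower slides ran from -2.17 to -0.45, -2.07 to -1.455 and -1.85 to -1.775 in that order. The rivers held unlike shares of higher slides, so these river means mix river and slide range.

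**Figure D3:**
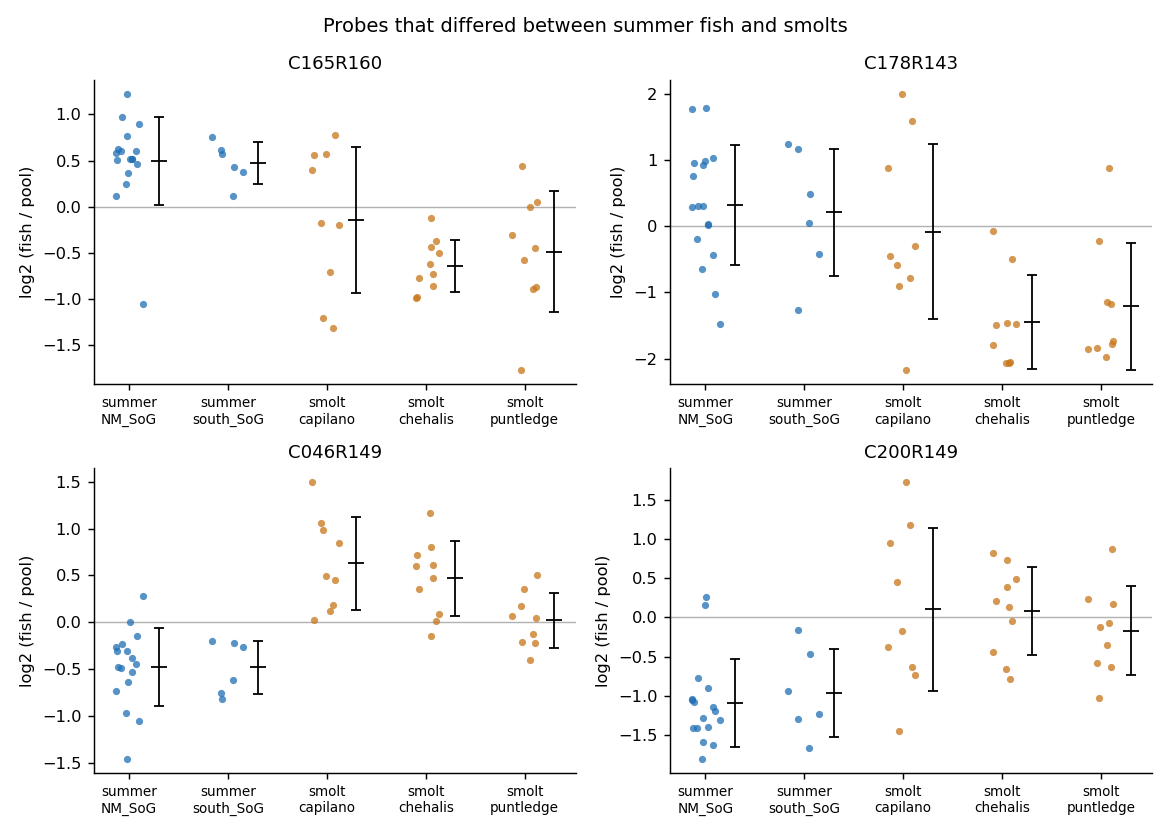
Log2 ratio of fish to pool of 4 probes in each fish, by ocean area for summer fish (blue) and by river for smolts (orange); points are fish, bars beside them are the mean and SD, and the grey line marks equality with the pool. C165R160 and C178R143 are higher and C046R149 and C200R149 lower in summer fish, and C046R149 overlaps least.

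The number of probes past the threshold moved with single places and single fish. Without the 17 NM_SoG fish 0 probes passed in limma, beside 1982 at an unadjusted p under 0.05, with the 6 south_SoG fish alone on the summer side. The count was 29 without the south_SoG fish. It was 498 without the capilano smolts, 26 without the chehalis smolts and 74 without the puntledge smolts. With the place of capture as a random block, 17 probes passed, and 23 passed with slide as a random block. The 51 fish lay on 29 slides, and only 1 of these held both stages. Stage and slide can therefore hardly be told apart in these 51 fish alone. In all 221 fish, other groups link the slides. A fit with slide as a fixed block there assumes that a slide shifts all groups alike. In it 611 of 21956 probes passed in limma. C046R149 (-0.99, adjusted p = 0.00369) and C165R160 (1.12, adjusted p = 0.00175) kept their calls. C178R143 (1.23, adjusted p = 0.0952) and C200R149 (-1.10, adjusted p = 0.0674) did not.

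Leaving out 1 fish at a time gave 49 to 483 probes. Fish are named here by their number in accession order. The count was more than 1.5 times higher without summer fish 22 (483 probes), 18 (400) or 9 (249), all from NM_SoG, and without capilano smolts 9 (270) or 6 (232). It was lower by more than that factor, at 49 to 81 probes, without any of 20 fish: summer fish 4, 6, 8, 10, 11, 13, 15, 17, 19, 20 and 21 and smolts 3, 7, 8, 10, 11, 12, 14, 17 and 26.

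Stage and length could not be told apart. With fork length as a covariate limma called 0 probes (1956 had an unadjusted p under 0.05), and only 3 summer fish and 2 smolts had lengths that the other stage also reached. The 4 named probes kept their direction in that fit, with steps of -0.82 for C046R149 (SE 0.24), -1.14 for C200R149 (SE 0.36), 1.20 for C165R160 (SE 0.30) and 1.81 for C178R143 (SE 0.57).

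Within the 23 summer fish no relation of these 4 probes to fork length passed a test. Pearson's r was -0.139 for C165R160, -0.127 for C178R143, 0.113 for C046R149 and 0.0731 for C200R149, and Spearman's rho was -0.189, -0.109, 0.127 and 0.128 in the same order. Over the 4 relations the adjusted permutation p was 0.725 for every r and 0.616 for every rho. Without the 2 fish farthest from the median length r was -0.0887, -0.126, 0.102 and 0.193. Among the 7 summer fish on higher slides r was -0.476, -0.539, 0.827 and 0.204, and among the 16 on lower slides it was -0.0454, 0.303, 0.0663 and 0.3.

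The slide ranges gave unlike pictures of the same step. The break in the slide numbers was used after the scores above had been seen, so the counts within ranges are a description. On higher slides, with 7 summer fish and 13 smolts, 878 of 20068 probes passed the threshold (4.38%; 415 higher and 463 lower in summer fish). On lower slides, with 16 summer fish and 15 smolts, 4920 of 22496 probes passed (21.9%; 2523 higher and 2397 lower in summer fish). The slide ranges share no fish, and over 19850 probes tested in both, 66.9% had steps of opposite sign. The steps correlated with r = -0.531 across these probes, which are not independent replicates. Of the 370 probes past the threshold in both, 42.3% of those called on higher slides and 8.03% of those called on lower slides, 365 had opposite signs.

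Between summer fish on higher and on lower slides limma called 0 of 21870 probes (0%), where 2005 had an unadjusted p under 0.05. Their scores on the leading axis still differed, with means of 4.91 ± 19.7 (SD, n = 7) on higher and -13.5 ± 9.79 (SD, n = 16) on lower slides. Smolts differed the other way round, with means of -17.9 ± 6.11 (SD, n = 13) on higher and 27.6 ± 17 (SD, n = 15) on lower slides. The probes with the largest opposite steps show the size of the split. The ranges and these probes were chosen with the values known. Their adjusted p-values within ranges are therefore a description and no test of the split. C151R127, chosen after its values were seen, had a median of -1.60 in 7 summer fish and of -4.77 in 13 smolts on higher slides, a step of 3.77 (SE 0.51, adjusted p = 0.000444). On lower slides its median was -3.90 in 16 summer fish and -0.15 in 15 smolts, a step of -3.70 (SE 0.44, adjusted p = 9.11e-07). The smolts on higher slides ranged from -8.20 to -3.88 and those on lower slides from -5.07 to 1.08, with some overlap. The summer fish differed between ranges as well, with means of -1.62 ± 0.85 (SD, n = 7) on higher and -3.99 ± 1.19 (SD, n = 16) on lower slides.

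C209R021, chosen in the same way, ran the other way round. Its median was -1.14 in summer fish and 1.28 in smolts on higher slides, a step of -2.36 (SE 0.34, adjusted p = 0.000918), and -0.16 in summer fish and -3.60 in smolts on lower slides, a step of 3.29 (SE 0.34, adjusted p = 1.7e-07). In all 51 fish together neither probe passed, with steps of -0.61 (SE 0.65, adjusted p = 0.678) for C151R127 and 0.77 (SE 0.53, adjusted p = 0.49) for C209R021. A mean over all smolts thus lay between sets of fish that differed by several log2 units at these probes.

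**Figure D4:**
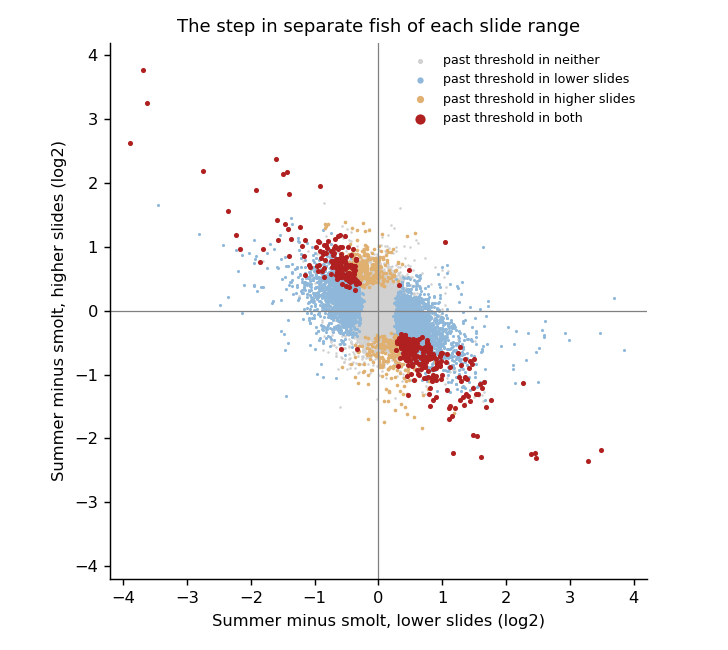
Summer minus smolt difference (log2) of each probe on higher slides (vertical axis) against lower slides (horizontal axis), with 19850 probes measured in separate fish; colours mark the ranges in which a probe passed the threshold, red for both. Most red points lie in the upper left and lower right, where the steps have opposite signs.

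Of the 122 probes of the whole comparison, 113 could be tested in both ranges. Of these, 105 had the direction of the whole comparison in both, beside 32.9% of the 19850 probes tested in all 3 fits, and 14 passed the threshold on higher and 112 of 122 on lower slides. Since the same fish made these calls, these counts are a description and support nothing about the probes. For C046R149 the step was -0.61 on higher slides (SE 0.23, adjusted p = 0.128) and -0.9995 on lower slides (SE 0.13, adjusted p = 3.62e-06). The smolts of the ranges had means of 0.29 ± 0.57 (SD, n = 13) on higher and 0.45 ± 0.36 (SD, n = 15) on lower slides, a gap smaller than either SD. C165R160 had steps of 0.45 (SE 0.24, adjusted p = 0.278) on higher and 1.31 (SE 0.14, adjusted p = 3.26e-07) on lower slides. Its smolts averaged -0.02 ± 0.465 (SD, n = 13) on higher and -0.79 ± 0.51 (SD, n = 15) on lower slides, a gap larger than either SD. C178R143 and C200R149 kept their directions too, with steps of 1.001 and -0.50 on higher slides, where neither passed, and of 1.64 and -1.41 on lower slides. For C178R143 the smolt means were -0.18 ± 1.22 (SD, n = 13) on higher and -1.58 ± 0.53 (SD, n = 14) on lower slides, a gap larger than either SD. For C200R149 they were -0.22 ± 0.46 (SD, n = 13) and 0.21 ± 0.87 (SD, n = 15), a gap smaller than either SD. With the slide range as a covariate in the fit of all 51 fish, 426 probes passed (200 higher and 226 lower in summer fish). That covariate assumes the same shift between slide ranges in both stages. On the leading axis the stages differed between ranges in opposite directions, so the covariate cannot take the slide range out of this count.

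In the hatchery smolts the region label follows the river, and 22 of the 23 summer fish carry one of the same 3 labels, so each river could be set beside summer fish of its own region. In Fraser, 9 summer fish against 10 chehalis smolts, 144 of 18804 probes passed the threshold (0.766%; 59 higher and 85 lower in summer fish). In ECVI, 8 summer fish against 9 puntledge smolts, 70 of 18804 passed (0.372%; 35 higher and 35 lower, or 42 and 21 after quantile normalization). In S_Main, 5 summer fish against 9 capilano smolts, limma called 0 of 18804 (0%), and 968 had an unadjusted p under 0.05. The Fraser count was 8 and the ECVI count 4 when slides entered as a random block, and with the slide range as a covariate they were 13 and 199.

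Slide ranges were spread unevenly over these groups. All 8 ECVI summer fish were on lower slides, but 6 of the 9 puntledge smolts were on higher slides. No ECVI step could therefore be taken on higher slides, and the ECVI step of all fish mixes stage with slide range. In Fraser 5 of 9 summer fish and 2 of 10 smolts were on higher slides, and in S_Main 2 of 5 summer fish and 5 of 9 smolts. On higher slides 14 of 19734 probes passed in Fraser and 39 in S_Main. On lower slides 1876 of 19665 probes passed in Fraser, with 4 summer fish and 8 smolts, 3122 in ECVI, with 8 and 3, and 14 in S_Main, with 3 and 4. These splits were made after seeing the data, and their counts differ widely from those of all fish.

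The difference between regions was itself tested, and 1 of 18804 probes passed limma's moderated F-test (0.00532%; 1528 at an unadjusted p under 0.05). That probe, C202R150, averaged -0.19 ± 0.32 (SD, n = 8) in ECVI summer fish and 0.67 ± 0.33 (SD, n = 9) in puntledge smolts, and the ranges did not overlap, with a highest summer value of 0.17 and a lowest smolt value of 0.28. In Fraser it averaged 0.37 ± 0.23 (SD, n = 9) in summer fish and -0.12 ± 0.53 (SD, n = 10) in chehalis smolts. In S_Main it averaged 0.45 ± 0.27 (SD, n = 5) in summer fish and 0.13 ± 0.35 (SD, n = 9) in capilano smolts.

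The ECVI step of C202R150 was -0.85 (SE 0.18, adjusted p = 0.0197), beside 0.49 in Fraser (SE 0.17, adjusted p = 0.13) and 0.33 in S_Main (SE 0.20, adjusted p = 1), and the steps differed between regions at an adjusted p of 0.046. This call was lost after quantile normalization (adjusted p = 0.0897), with the slide range as a covariate (0.184) and with slide as a random block (0.959). On lower slides alone 382 of 19665 probes differed between regions, C202R150 among them (adjusted p = 0.0135), with steps of -0.97 in ECVI, 0.68 in Fraser and 0.51 in S_Main. On higher slides, where Fraser and S_Main alone could be set side by side, limma called 0 of 19734 probes (1093 at an unadjusted p under 0.05), and its steps were -0.13 in Fraser and 0.15 in S_Main (adjusted p of the difference = 0.957). The 2 Fraser smolts on higher slides averaged 0.47 and the 8 on lower slides -0.27. The next probe, C019R115, did not pass in all fish (adjusted p = 0.055) and passed on lower slides alone (adjusted p = 0.04); in all fish its steps were 0.12 in ECVI, -0.60 in Fraser and 0.64 in S_Main.

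The 4 probes of the whole comparison were named in these same fish for steps of the same sign in each region. Their steps and calls by region are therefore a description only. C046R149 had a step of -0.58 in ECVI, -0.99 in Fraser and -0.86 in S_Main. C165R160 had steps of 1.03, 1.08 and 0.72 in that order of regions. Of the 12 steps of the 4 probes, those of C046R149, C165R160 and C200R149 in Fraser passed the threshold, with adjusted p-values of 0.00756, 0.0277 and 0.0316.

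The same step was measured in wild fish of 2009. Fork length averaged 18.0 cm ± 1.99 (SD, n = 26) in summer fish and 10.3 cm ± 1.3 (SD, n = 12) in smolts. The wild step passed the threshold at 6 of 21455 probes (0.028%, 1 higher and 5 lower in summer fish). At an unadjusted p under 0.05 there were 3299 probes. In the same fit the hatchery step passed at 126 probes, with 3490 at an unadjusted p under 0.05. The median size of the step over all tested probes was 0.15 in wild and 0.12 in hatchery fish. The wild step rests on fewer smolts, 12 against 28, so the counts of calls cannot be compared directly. No probe of the 121 hatchery probes that could be tested in wild fish was among the 6. Of the 121, 56.2% had the same sign in wild fish, against 56.1% of all tested probes, so the share was near the background.

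The hatchery step differed from the wild step at 15 of 21455 probes (0.0699%; 7 with a more positive and 8 with a more negative hatchery step, or 3 and 2 of 5 after quantile normalization). At all 15 the hatchery and wild steps had opposite signs, while 56.1% of all tested probes had the same sign. Probes called for a large difference between the steps tend to have opposite signs, so this count is a description only. On their own, 7 of the 15 steps passed in hatchery fish and 2 in wild fish, and 0 probes passed in both. C046R149 was among the 15: it averaged -0.16 ± 0.66 (SD, n = 26) in wild summer fish and -0.35 ± 0.48 (SD, n = 12) in wild smolts. Its step was -0.86 in hatchery and 0.19 in wild fish, a difference of -1.05 (SE 0.23, adjusted p = 0.0379). The wild smolts thus lay near the hatchery summer fish for this probe, and the hatchery smolts lay higher. C046R149 was named for its hatchery step in these same hatchery fish, so its difference from the wild step is not independent of that choice.

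C165R160 was also among the 15, and it too was named for its hatchery step. It averaged 0.12 ± 0.68 (SD, n = 26) in wild summer fish and 0.39 ± 0.34 (SD, n = 12) in wild smolts, a step of -0.27 beside 0.92 in hatchery fish (difference 1.19, SE 0.25, adjusted p = 0.029). For C178R143 and C200R149 the difference was not past the threshold, at 1.12 (SE 0.49, adjusted p = 0.326) and -0.83 (SE 0.36, adjusted p = 0.316).

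The probe with the smallest p among those with a more negative hatchery step was C072R161. In hatchery fish it ranged from -1.57 to 0.51 with a median of -0.24 in summer fish and from -0.78 to 0.92 with a median of 0.17 in smolts. In wild fish it ranged from -0.87 to 0.93 with a median of 0.00 in summer fish and from -0.88 to 0.21 with a median of -0.50 in smolts. The steps were -0.54 in hatchery and 0.42 in wild fish, a difference of -0.96 (SE 0.18, adjusted p = 0.0245).

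C159R024 led those with a more positive hatchery step. In hatchery fish its median was -0.13 (-0.79 to 0.89) in summer fish and -0.35 (-1.004 to 0.36) in smolts. In wild fish it was -0.21 (-0.72 to 0.54) in summer fish and 0.33 (-0.35 to 0.89) in smolts. The steps were 0.30 in hatchery and -0.45 in wild fish, a difference of 0.76 (SE 0.15, adjusted p = 0.0259). All 4 groups overlapped at both probes.

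Smolt rivers and slides differ between these groups. The wild smolts came from capilano and salmon and lay on lower slides only. Restricted to lower slides, with 16 and 15 hatchery and 17 and 12 wild summer fish and smolts, the hatchery and wild steps differed at 183 of 21622 probes (48 with a more positive and 135 with a more negative hatchery step), and C072R161 (-0.89, adjusted p = 0.032) and C159R024 (0.75, adjusted p = 0.0367) passed. This restriction did not make the smolts alike. On lower slides 5 of the 12 wild smolts scored below 0 on the leading axis, beside 1 of the 15 hatchery smolts. Without the puntledge smolts 2 probes passed, both with a more negative hatchery step, and neither C072R161 nor C159R024 was among them (adjusted p = 0.0691 each). With slide as a random block limma called 0, while 2597 had an unadjusted p under 0.05, and the adjusted p was 0.0572 for C072R161 and 0.0837 for C159R024. Origin, river and slide cannot be told apart here.

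**Figure D5:**
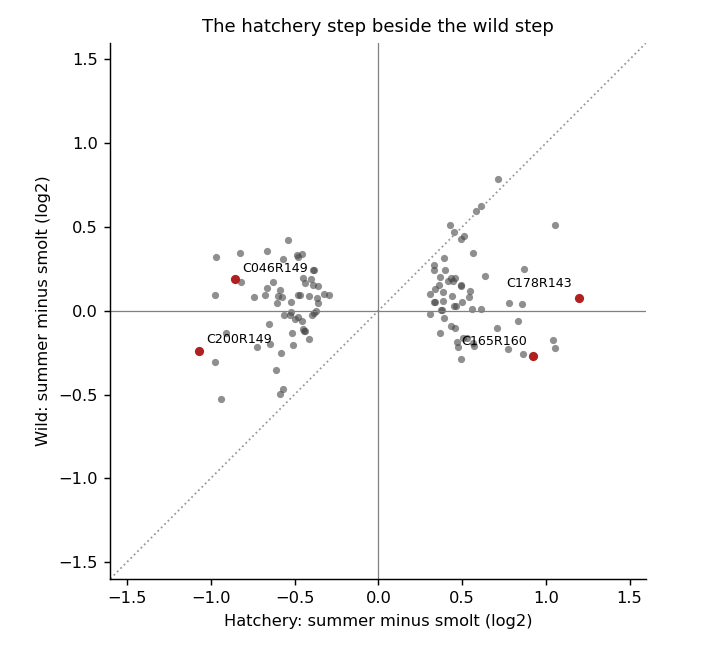
Summer minus smolt difference (log2) in wild fish (vertical axis) against hatchery fish (horizontal axis) for 121 of the 122 probes past the threshold in hatchery fish; the dotted line marks equal steps and red points are the 4 named probes. The probes spread on both sides of 0 in wild fish, and C046R149 and C165R160 lie on the opposite side from their hatchery step.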

How the data were processed

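White muscle RNA of each fish carried one Alexa dye and the pooled reference another, without dye swaps, per the labels' protocols. The authors deposited a value for each probe and fish, already normalized and with empty cells. The series matrix was read, and the other deposited file was not used here. The unit is not stated in these sources. Per the labels' dyes, the deposited numbers are probably log2 of fish over pool: in 3 sets of probes with a variance of 0.2 or more, the median log2 of the mean linear ratio to the pool lay between 0.00857 and 0.0566 in this reading, and between 0.157 and 1.19 in the reverse one. These sets held 7882, 1676 and 759 probes. In the sets below that variance, with 3256 and 8537 probes, the reverse reading was nearer 0. The direction of the values is therefore likely but not settled. The deposited values had array medians from -0.00531 to 0.0205. How spots were quantified, background-corrected and normalized is not given in the sources used here. In that matrix 0 value columns were unused.

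Groups came from the season, origin, year and area labels. Fish are separate animals, and p-values measure the spread between them. Fish on the same slide are not fully independent, with a correlation within slides of 0.319. The fits without a slide term treat them as if they were. Of the 29 slides of the 51 hatchery fish 1 held both stages, so a slide term can hardly separate slide from stage. Comparisons used lmFit and eBayes of limma 3.58.1 in R 4.3.3 with data.table (version 1.17.8), fitted on the deposited values over all tested probes, with Benjamini-Hochberg adjustment and a threshold of 0.05. A step was a column of its own in the design, so that empty cells left it exact. The region comparison used 1 coefficient for each region and stage, with a moderated F-test, and the wild comparison 1 for each of 4 groups. Probes were named by rule: in each direction the smallest p and the largest step among those past the threshold with the same sign in 3 regions, the 2 smallest p-values between regions, and the smallest p in each direction between hatchery and wild steps. Size was tested with scipy 1.17.1. The RefSeq gene table of assembly Okis_V2 held none of the 43636 identifiers, so cell types and gene lists were not examined. The fits were tested on simulated data. The simulated fish were independent, with no slide or place effect, so that test cannot show false calls from slides or places. The members and lists were chosen with earlier results of these data known. Alternatives were covariates, blocks, places left out, normalization, filters, variance model and minimum difference. Slide ranges and single fish left out were added after seeing the data.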

Additional observations from a re-analysis of the deposited data

Results flagged for a closer look

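Within the 66 sets of 4 to 10 fish examined, one for each summer region or smolt river and each measure, 8 values stood apart by Dixon's criterion. Some of these values belong to the same fish. Chance flags about 1 in 20 such sets. For C165R160 they were the highest ECVI summer fish at 1.23 (next 0.61), the lowest Fraser summer fish at -1.05 (next 0.25) and the highest S_Main summer fish at 0.97 (next 0.52). The ECVI summer fish at 1.23 was also the lowest for C046R149, at -1.46 (next -0.76). Another ECVI summer fish was the lowest for C202R150, at -0.87 (next -0.28). In puntledge 1 smolt had a fork length of 15.7 cm (next 13.4 cm), and the same smolt was the heaviest, at 46 g (next 26.5 g). The highest condition factor of ECVI summer fish was 1.31 (next 1.21).

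Steps differed between groups at 5 named probes. Of these, C165R160 and C046R149 were named for their hatchery steps and the others for these differences. The hatchery step minus the wild step was 0.76 for C159R024, -0.96 for C072R161, 1.19 for C165R160 and -1.05 for C046R149, with limma adjusted p-values of 0.0259, 0.0245, 0.029 and 0.0379. The step of C202R150 differed between regions with a moderated F of 17.1 (limma adjusted p = 0.046).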

How the results depend on the processing

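The 4 named probes of the whole comparison kept their direction in every alternative run. C178R143 was least firm and lost its call in 24 of 72 alternatives, against 4 for C046R149, 4 for C165R160 and 5 for C200R149. Of these 72, 51 left out a single fish each and so differ little from the main fit. C046R149, C165R160 and C200R149 kept their calls in all 51, so their losses all fell among the remaining settings. The count of 122 became 263 with region as a covariate, 245 with all 221 fish in the fit, 611 with the slide as a fixed block in those fish, 287 after quantile normalization and 426 with the slide range as a covariate. It became 17 with place and 23 with slide as a random block, 68 with at least 3 fish measured per group, 0 with fork length as a covariate and 0 against a minimum difference of 0.25 (284 at an unadjusted p under 0.05 in limma's treat). Leaving out places gave 498 without capilano, 26 without chehalis, 74 without puntledge, 29 without south_SoG and 0 without NM_SoG, single fish left out gave 49 to 483, higher slides gave 878 and lower slides 4920. Other settings stayed within 1.5 times. Between regions 1 probe became 0 after quantile normalization (1499 at an unadjusted p under 0.05 in limma), 0 with the slide as a random block (921), 0 with the slide range as a covariate (1578) and 2 where 90% of fish were measured. The Fraser count became 279, 8, 13 and 56 in that order, and the ECVI count became 4 with the slide block and 199 with the slide range. On lower slides the counts became 382 between regions, 3122 in ECVI, 1876 in Fraser and 14 in S_Main, and on higher slides, without ECVI, 0 between regions (1093), 14 in Fraser and 39 in S_Main, where the Fraser step of C202R150 turned to -0.13. Between hatchery and wild steps 15 became 5 after quantile normalization, 0 with the slide block, 2 without puntledge and 183 on lower slides. The causes were not tested. The series matrix was the table read, so no second table was tried. Single fish were left out only in the whole comparison. No paired analysis was possible because the labels give the fish no replicate numbers that groups share.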
